A study of Homo sapiens with 8 samples.

Results

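The CP2/grainyhead family of transcription factors was followed in A549 cells, a human lung adenocarcinoma epithelial line, with and without the synthetic glucocorticoid dexamethasone. The family has 6 members here, TFCP2L1, TFCP2 and UBP1 of the CP2 branch and GRHL1, GRHL2 and GRHL3 of the grainyhead branch, out of 19158 genes in each library. They were taken by gene symbol, and the family was chosen by the TFCP2L1 levels measured in these same libraries, which differed widely between the groups. The TFCP2L1 values are therefore a description with no test, while the other 5 genes belong by family membership. RNA was depleted of ribosomal RNA and sequenced from 4 untreated libraries and 4 libraries from cells given 1 µM dexamethasone for 48 h. All 8 libraries are labelled wild type and batch 1, with replicate numbers 1, 3, 4 and 5 in each group, and all cells of both groups were grown with serum in the medium. The labels speak of wells of 1 cell line, so p-values measure the spread between libraries of that line and not between independent lines or donors. Any spread shared by a replicate number is part of it, as the main fit did not pair libraries.

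Members of this family bind DNA as dimers or larger complexes through a shared type of DNA-binding domain. CP2 factors such as TFCP2 and UBP1 are made in most tissues, whereas TFCP2L1 is known from naive pluripotent stem cells, where it sits among the factors that keep self-renewal going, and from the distal nephron and collecting duct of the kidney. Grainyhead-like factors drive epithelial differentiation, barrier formation and wound closure, and GRHL2 is known for maintaining epithelial junction genes and opposing ZEB1. Dexamethasone binds the glucocorticoid receptor, which acts on DNA at paired hexamers.

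Levels are given as scaled FPKM, a measure of fragments per transcript length and library size after removal of a scaling factor per library. The unit was inferred from the values. Comparisons between genes, such as orders and shares of members, rest on the values being per length, and the lengths used are not given. The log2 changes are dexamethasone minus untreated on the log2(FPKM + 1) scale, which understates the change of genes with low levels, and a gene was called at a limma adjusted p under 0.05 over all tested genes. Depth, estimated from the steps between low values, was 25000000 to 28700000 fragments per library, and 14798 to 15182 genes per library had a value above 0. Only 45.8% to 50% of the low values used lay within 0.1 of a whole fragment, so depth and all fragment numbers are approximate. The libraries numbered 5, 1 in each group, stood apart on the second principal component (31.7 and 30.6, against -24.9 to 7.03 for the other 6). On the first component, with 63.2% of the variance, untreated replicate 5 was at -61.5, against -27.0 to -21.0 for the other untreated libraries. Dexamethasone replicate 5 was at 16.4 there, against 33.6 to 43.4 for the other dexamethasone libraries. Results that move without the libraries numbered 5 are therefore given both ways. The glucocorticoid-responsive genes FKBP5, TSC22D3 and PER1 were higher in every dexamethasone library than in any untreated library, with log2 changes of 4.33, 3.87 and 1.94. The keratins KRT8 and KRT18, which define simple epithelium, were at 882 to 2407 and 741 to 1541 FPKM over all 8 libraries, while EPCAM, another epithelial marker, did not exceed 0.704. KRT19, another keratin of the 5 epithelial markers, fell from 160 ± 55.7 to 55.0 ± 10.9 FPKM (log2 change -1.49, adjusted p = 0.00140), with no overlap between the groups, and CDH1 is described with the grainyhead-linked genes. The leukocyte markers PTPRC and CD3E and the fibroblast marker COL1A2 were listed at 0 in all 8. The summed level of the 5 fibroblast markers was 1.67 to 2.64 in untreated and 0.581 to 0.781 in dexamethasone libraries, that of the 5 leukocyte markers 3.67 to 6.35 and 1.95 to 2.63, and that of the 4 endothelial markers 0.0641 to 0.177 and 0.0377 to 0.0946. The fibroblast and endothelial sums hid opposite moves. COL1A1 fell from 2.05 ± 0.370 to 0.366 ± 0.0715 FPKM (log2 change -1.15, adjusted p = 5.32e-05). DCN was listed at 0 in every untreated library and at 0.172 to 0.382 FPKM in dexamethasone libraries. Of the endothelial markers, CDH5 went from 0.101 ± 0.0312 to 0.00233 ± 0.00465 FPKM and KDR from 0.00158 ± 0.00317 to 0.0545 ± 0.0325 FPKM. Both genes were at very low levels and were not tested. Most of the leukocyte sum was CD68, which fell from 4.12 ± 1.22 to 2.05 ± 0.266 FPKM (log2 change -0.72, adjusted p = 0.0104). The part of these marker genes in the results was not tested.

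The 250 bases upstream of the TFCP2L1 start, and those of its paralog TFCP2 for comparison, are shown because these were the CP2 genes with and without a wide difference between the groups. They are from RefSeq on GRCh38.p14, read 5′ to 3′ on the minus strand, at chr2:121285203-121285452 and chr12:51173136-51173385, and capitals mark CG dinucleotides.
TFCP2L1: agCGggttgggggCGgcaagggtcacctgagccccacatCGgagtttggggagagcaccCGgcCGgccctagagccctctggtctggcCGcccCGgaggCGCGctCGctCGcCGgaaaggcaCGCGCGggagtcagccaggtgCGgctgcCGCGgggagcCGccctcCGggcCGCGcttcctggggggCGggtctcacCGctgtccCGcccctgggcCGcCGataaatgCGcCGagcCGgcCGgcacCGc
TFCP2: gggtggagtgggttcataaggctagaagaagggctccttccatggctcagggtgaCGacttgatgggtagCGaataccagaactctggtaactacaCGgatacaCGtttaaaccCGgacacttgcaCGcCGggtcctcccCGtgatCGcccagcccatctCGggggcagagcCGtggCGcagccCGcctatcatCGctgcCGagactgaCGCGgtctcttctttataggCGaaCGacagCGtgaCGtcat
The TFCP2L1 window held 32 CG dinucleotides at 76.8% GC and the TFCP2 window 21 at 58.8% GC. Over 35116 RefSeq promoters the median was 11 CG dinucleotides and 58% GC, and 9.52% of promoters held at least 32 and 30.2% at least 21. Neither window, extended by 50 bases past the start, held the glucocorticoid response element (AGAACA and TGTTCT spaced by 3 bases), its looser form (GNACA and TGTNC spaced by 3 bases) or the hexamer TGTTCT alone, on either strand. Those motifs were in 0.00285%, 0.390% and 14.8% of such promoters, and every match of the strict element is also a match of the looser one and of the hexamer. The grainyhead site AACCGGTT, present in 0.134% of promoters, was in none of the windows of TFCP2L1, TFCP2, UBP1, GRHL1 and GRHL3. A CP2 site, written as CCAG and CCAG spaced by 6 bases and present in 4.04% of promoters, occurred in 1 of the 2 GRHL3 windows and in no window of TFCP2L1, TFCP2, UBP1 or GRHL1.

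Within 25 kb on either side of the start sites, the strict element was in none of the windows of TFCP2L1, TFCP2, UBP1, GRHL1 and GRHL3 and in 0.824% of 18934 gene windows, and the looser form was in 47.0% of windows. The looser form occurred once near TFCP2L1, 2415 bases downstream of the start in an intron of TFCP2L1, and at 2 places upstream of GRHL1, the nearer of which is shown. No looser match lay in the windows of TFCP2, UBP1 or GRHL3. A sequence is shown for each of TFCP2L1 and GRHL1, as letters like a receptor element near the members whose means differed most in proportion, with the 13 matched bases in capitals. They come from GRCh38, each on the strand of its gene (minus for TFCP2L1, plus for GRHL1), with the matched bases at chr2:121282780-121282792 and chr2:9948832-9948844.
TFCP2L1 intron: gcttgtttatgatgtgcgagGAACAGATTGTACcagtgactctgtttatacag
GRHL1 upstream: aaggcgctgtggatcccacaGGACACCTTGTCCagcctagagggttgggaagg
The GRHL1 match shown lay 2861 bases upstream of its start. A match of letters is a description and says nothing of binding, which was not measured.

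TFCP2L1 (ENSG00000115112, chr2:121216587-121285207, minus strand) was 2.04, 2.54, 2.23 and 1.86 FPKM in untreated replicates 1, 3, 4 and 5. In dexamethasone replicates 1, 3, 4 and 5 it was 37.1, 40.4, 34.7 and 36.8 FPKM. Every dexamethasone library was thus far above every untreated library, and the 4 libraries of each group lay close together. The means were 2.17 ± 0.290 and 37.3 ± 2.32 FPKM (SD, n = 4 each), a ratio of 17.2 and a log2 change of 3.60 (SE 0.118), given as a description. This rise ranked 18 from the largest among 12161 tested genes. Of those genes 26.7% were called in either direction, 12.4% higher and 14.3% lower, and 4 of the 6 family members were among the genes tested. All dexamethasone libraries lay above all untreated libraries for 14.5% of tested genes and below them for 17%, or 31.5% in all. In bulk RNA, more cells that make TFCP2L1 and more TFCP2L1 RNA per cell cannot be told apart. The estimated fragments behind a TFCP2L1 value numbered 356 to 654 in untreated and 8836 to 10374 in dexamethasone libraries. No other annotated gene overlaps an exon of TFCP2L1.

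TFCP2 (ENSG00000135457, chr12:51093663-51173134, minus strand), the widely made factor also called LSF, stood at 8.48, 8.09, 7.28 and 5.48 FPKM in untreated replicates 1, 3, 4 and 5. In the dexamethasone libraries, in the same order, it stood at 7.56, 7.92, 7.49 and 7.29 FPKM. The groups overlapped, with the lowest TFCP2 value in untreated replicate 5. Means were 7.33 ± 1.33 and 7.56 ± 0.262 FPKM (SD, n = 4 each), and the log2 change of 0.05 (95% interval -0.26 to 0.37) did not pass the test (adjusted p = 0.794). The sign of this change turned without both libraries numbered 5 (-0.06). An exon of TFCP2 overlaps the pseudogene PHB1P19 on the same strand, so reads there cannot be assigned with certainty.

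UBP1 (ENSG00000153560, chr3:33388336-33441371, minus strand), a close relative of TFCP2 needed for placental vessels in mice, measured 22.1, 26.0, 18.7 and 15.8 FPKM in untreated replicates 1, 3, 4 and 5. In dexamethasone replicates it was at 22.1, 18.8, 18.5 and 17.8 FPKM in the same order. The dexamethasone values all lay within the untreated range. Means were 20.7 ± 4.42 and 19.3 ± 1.91 FPKM (SD, n = 4 each), and the log2 change of -0.08 (95% interval -0.44 to 0.29) did not pass the test (adjusted p = 0.751). After correction of every library for gene GC content, the UBP1 change was -0.34 and passed (adjusted p = 0.0419).

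**Figure D1:**
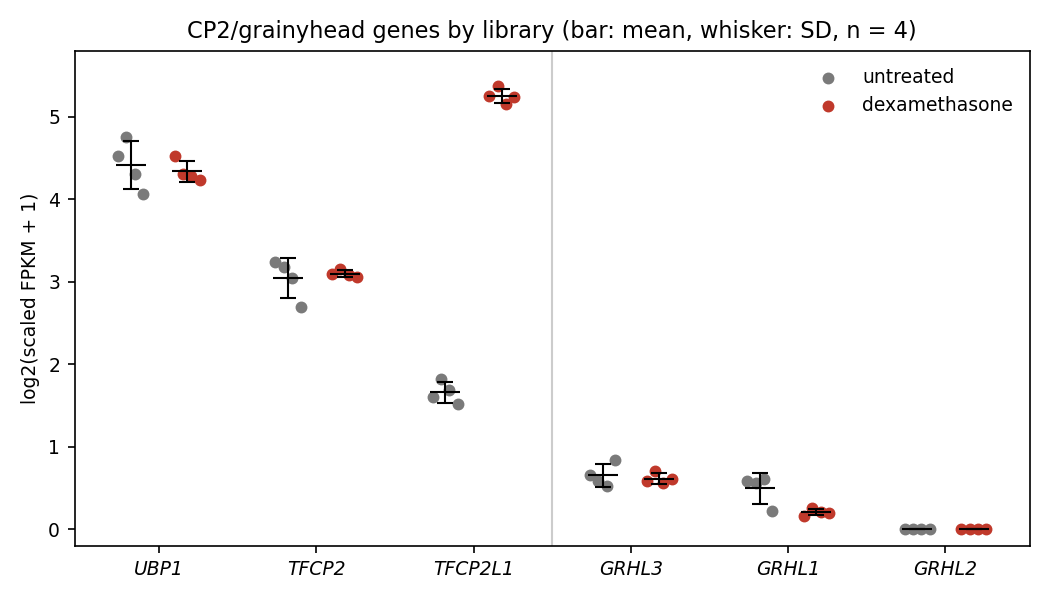
Levels of the 6 family members as log2(scaled FPKM + 1) on the vertical axis, with 1 point per library, untreated in grey and dexamethasone in red, and bars and whiskers for the mean and SD of each group (n = 4). TFCP2L1 lies between 1.86 and 2.54 FPKM in untreated and between 34.7 and 40.4 FPKM in dexamethasone libraries, TFCP2 and UBP1 overlap between groups, and GRHL2 is listed at 0 throughout.

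In untreated cells UBP1 was the most abundant member, followed by TFCP2, TFCP2L1, GRHL3, GRHL1 and GRHL2. The libraries of neighbours in that order did not overlap, except those of GRHL3 and GRHL1. In dexamethasone cells the order was TFCP2L1, UBP1, TFCP2, GRHL3, GRHL1 and GRHL2, with no overlap between neighbours. TFCP2L1 thus stood behind both of its CP2 relatives in untreated cells and ahead of both in treated cells.

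The summed level of the 3 CP2 genes was 30.2 ± 5.82 FPKM in untreated and 64.1 ± 3.26 FPKM in dexamethasone libraries (SD, n = 4 each). TFCP2L1 made up 6.26%, 6.92%, 7.88% and 8.05% of that sum in untreated replicates 1, 3, 4 and 5. In the dexamethasone libraries it made up 55.6%, 60.2%, 57.2% and 59.5% in the same order. UBP1 supplied 68.3 ± 1.95% of the untreated sum and 30.1 ± 2.25% of the dexamethasone sum (SD, n = 4 each). The share of TFCP2 was 24.4 ± 1.86% and 11.8 ± 0.420% (SD, n = 4 each). The dexamethasone libraries were thus split into TFCP2L1, UBP1 and TFCP2 in falling order, and these shares follow from the TFCP2L1 difference by which the family was picked.

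**Figure D2:**
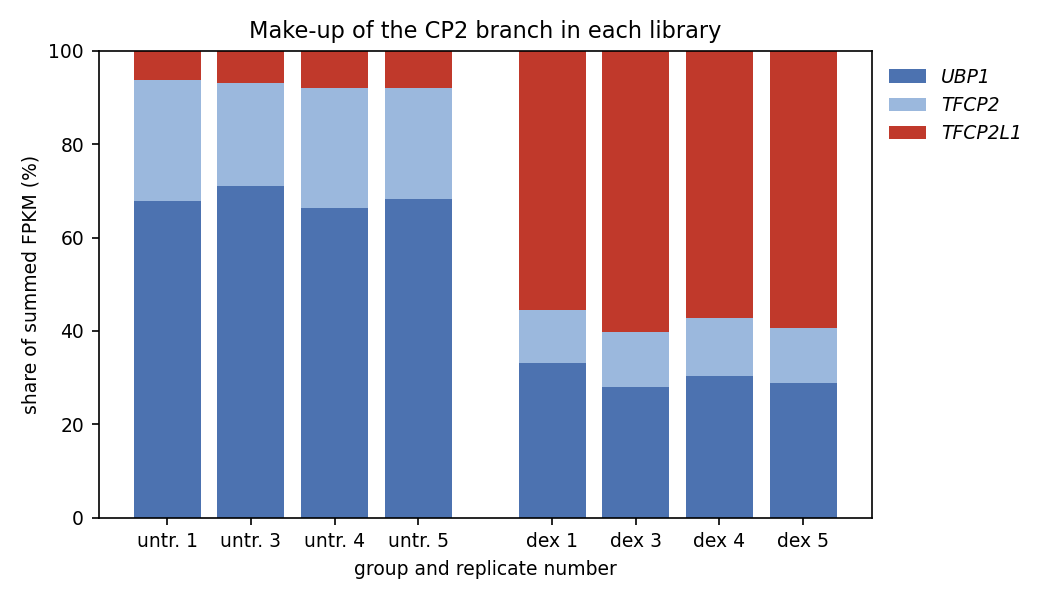
Percent of the summed scaled FPKM of TFCP2L1, TFCP2 and UBP1 that each gene supplied, with 1 bar per library. TFCP2L1 supplied 6.26% to 8.05% in untreated and 55.6% to 60.2% in dexamethasone libraries.

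GRHL1 (ENSG00000134317, chr2:9951693-10002277, plus strand), which acts on desmosomal genes of the skin, was the grainyhead gene with the widest difference between the means. Its untreated values in replicates 1, 3, 4 and 5 were 0.504, 0.470, 0.530 and 0.165 FPKM. Its dexamethasone values in the same order were 0.117, 0.194, 0.155 and 0.150 FPKM. Untreated replicates 1, 3 and 4 were above every dexamethasone library, while untreated replicate 5 lay among the dexamethasone values. Means were 0.417 ± 0.170 and 0.154 ± 0.0312 FPKM (SD, n = 4 each), at an estimated 16.6 to 80.7 fragments per library. GRHL1 did not pass the filter on low values, which asks for 4 or more libraries with 0.5 FPKM or more. The fit with no filter tested 16561 genes and called 21.7% of them, 9.76% higher and 11.9% lower. In it the GRHL1 log2 change was -0.29 (SE 0.0840, adjusted p = 0.0437). An exact two-sided permutation test on its FPKM gave p = 0.0571, where 4 libraries against 4 cannot go below 0.0286. Without untreated replicate 5 the change was -0.39 (adjusted p = 0.000197) and without both libraries numbered 5 it was -0.40 (adjusted p = 0.00066). Leaving out any of the other 7 libraries gave -0.25 to -0.30 with adjusted p of 0.0764 to 0.111, and the values as deposited, with no further scaling, gave -0.30 (adjusted p = 0.0669), so none of these passed. With a pseudocount of 0.1 in place of 1 the change was -0.96 (adjusted p = 0.0439). There are 2 antisense genes that overlap GRHL1 exons, and the sources used here do not say whether the counting used strand.

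GRHL3 (ENSG00000158055, chr1:24319322-24364482, plus strand), known for epidermal barrier formation and neural tube closure, measured 0.582, 0.502, 0.440 and 0.790 FPKM in untreated replicates 1, 3, 4 and 5. In the dexamethasone libraries it was at 0.504, 0.627, 0.469 and 0.523 FPKM in the same order. The groups overlapped, with the highest value in untreated replicate 5. Means were 0.578 ± 0.153 and 0.531 ± 0.0680 FPKM (SD, n = 4 each), and the log2 change of -0.04 (95% interval -0.24 to 0.16) did not pass the test (adjusted p = 0.761). An estimated 35.1 to 49.2 fragments lay behind each GRHL3 value. Without both libraries numbered 5 the change was 0.02.

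GRHL2 (ENSG00000083307, chr8:101492432-101669726, plus strand), the grainyhead factor most tied to epithelial junctions, was listed at 0 in all 8 libraries. A single fragment would have given about 0.00666 to 0.00765 FPKM by the estimated depth and the longest annotated transcript. This floor is approximate, since the lowest values above 0 among genes of similar length were 0.000446 to 0.00321 FPKM per library. The neighbouring genes ZNF706 and NCALD were at 7.19 to 10.8 and 1.61 to 3.07 FPKM, and none of 10 housekeeping genes was at 0. Of 2060 genes of similar transcript length, 226 to 278 per library were also at 0. The planned test of the GRHL2 share of the grainyhead sum was not run, as the share was 0 in every library. That sum was 0.995 ± 0.0606 FPKM in untreated and 0.685 ± 0.0938 FPKM in dexamethasone libraries (SD, n = 4 each), with a GRHL1 share of 41.7 ± 16.6% and 22.4 ± 2.54%.

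**Figure D3:**
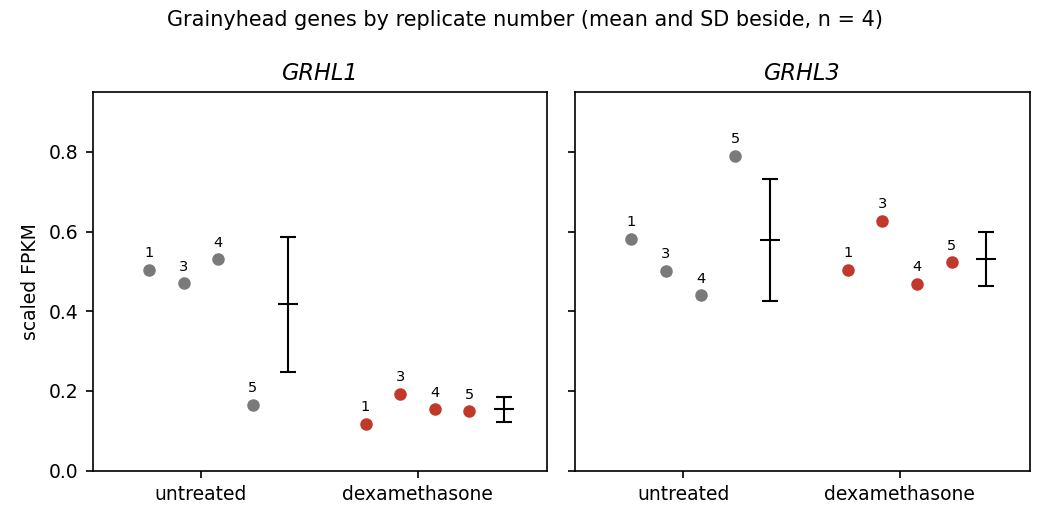
Scaled FPKM of GRHL1 (left) and GRHL3 (right) in each library, labelled by replicate number, with the mean and SD of each group beside the points (n = 4). Untreated replicate 5 has the lowest untreated GRHL1 value (0.165 FPKM) and the highest GRHL3 value (0.790 FPKM).

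**Figure D4:**
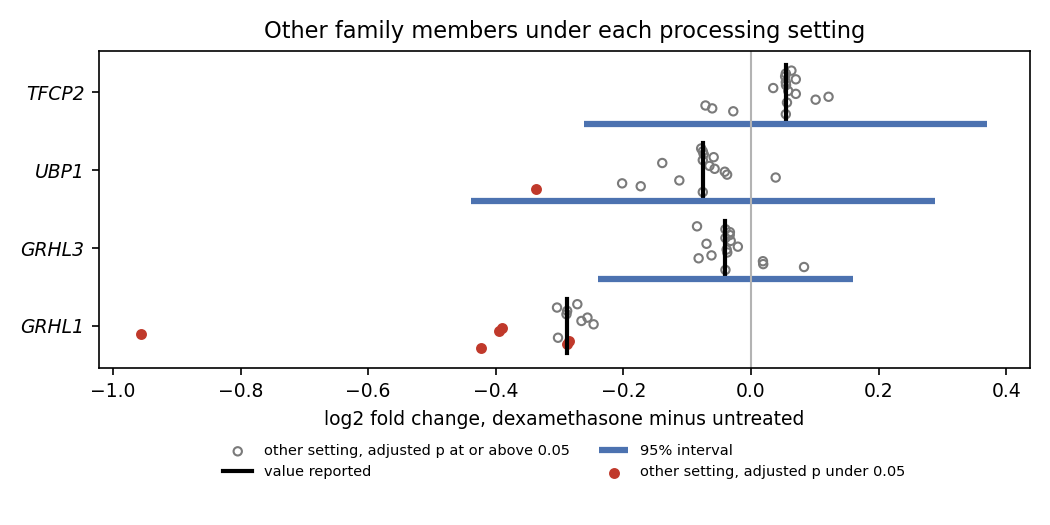
Log2 change (dexamethasone minus untreated, horizontal axis) of TFCP2, UBP1, GRHL3 and GRHL1 under each processing setting (points, filled where the adjusted p is under 0.05), with the reported value as a black line and its 95% interval in blue where the gene passed the filter. TFCP2, UBP1 and GRHL3 have points on both sides of 0, UBP1 has 1 filled point at -0.34, and every GRHL1 point is below 0.

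At the level of coding sequence, TFCP2, UBP1 and TFCP2L1 were 71.7% to 73.9% identical to each other over aligned bases, and the grainyhead genes 66.8% to 71.0%. Across the branches identity was 61.7% to 66.3%. Over all annotated transcripts, not coding sequence alone, words of 31 bases were shared by no pair except TFCP2L1 and UBP1. That pair shared 2 such words, which may overlap. The coding sequences were 1437 bases long in TFCP2L1, 1506 in TFCP2 and 1620 in UBP1, and 1854, 1875 and 1878 in GRHL1, GRHL2 and GRHL3.

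Genes linked to grainyhead factors in epithelia, a list of 35, moved in both directions. Of 20 that passed the filter, 6 were called higher (30%), 6 lower (30%) and 8 neither, beside 12.4% and 14.3% of all tested genes, with a median log2 change of 0.05 against 0.01 over all tested genes. CLDN7 and TGM1 passed the filter through the dexamethasone libraries alone, and LAD1 through the untreated ones alone. The filter thus let these genes in by the group where they were high. This list and those below were chosen with earlier results of these data known, so the shares are a description. PPL, which encodes the cornified-envelope and desmosome linker periplakin, was at 4.10 ± 0.265 FPKM in untreated and 51.5 ± 3.37 in dexamethasone libraries (log2 change 3.36, SE 0.110, adjusted p = 7.15e-08). CLDN7, a tight-junction claudin, was at 0.132 ± 0.159 and 2.84 ± 0.605 FPKM, with 1 untreated library at 0 (log2 change 1.76, adjusted p = 2.79e-05). EHF, an epithelial ETS transcription factor, was at 3.65 ± 0.815 and 14.3 ± 3.22 FPKM (log2 change 1.71, adjusted p = 0.000186). PPL, CLDN7 and EHF each had groups that did not overlap. The other 3 that rose were CDH1, DSP and TGM1, named after their values were seen, of which CDH1, the adherens-junction cadherin, was at 6.71 ± 0.837 and 18.3 ± 2.06 FPKM (log2 change 1.32, adjusted p = 8.15e-05).

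The claudins CLDN3 and CLDN4 fell, from 4.64 ± 1.75 to 1.71 ± 0.711 FPKM (log2 change -1.04, adjusted p = 0.00957) and from 2.16 ± 0.529 to 0.829 ± 0.227 FPKM (log2 change -0.78, adjusted p = 0.0043). SPINT2, a membrane inhibitor of serine proteases, fell from 137 ± 23.2 to 89.1 ± 13.1 FPKM (log2 change -0.61, adjusted p = 0.0222), and was not called when dexamethasone replicate 1, 3 or 4 was left out (-0.53, -0.59 and -0.60). LAD1, ARHGEF19 and CGN, also named after their values were seen, were the other 3 that fell. ARHGEF19 was not called without dexamethasone replicate 1, 3 or 4 or untreated replicate 1 or 4, and CGN was called in no fit that left out 1 library except the one without dexamethasone replicate 1. Without dexamethasone replicate 3 or 4, 3 genes of the list were called lower in place of 6. Claudins thus changed in both directions between the same libraries. OVOL1, TGM5 and DSG1 were listed at 0 in all 8 libraries, and ESRP1, ESRP2 and RAB25, an epithelial splicing pair and a trafficking GTPase, did not exceed 0.0794, 0.0902 and 0.0670 FPKM.

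Of 12 mesenchymal and EMT (epithelial-mesenchymal transition) genes, all passed the filter, with 2 called higher (16.7%), 1 lower (8.33%) and a median log2 change of 0.11. These shares are near the 12.4% and 14.3% of all tested genes. Only the dexamethasone libraries carried SNAI2 past the filter. SNAI2, a zinc-finger repressor of junction genes, rose from 0.360 ± 0.117 to 5.18 ± 0.987 FPKM (log2 change 2.17, adjusted p = 6.5e-06). FN1, which encodes fibronectin, rose from 64.3 ± 13.7 to 169 ± 27.7 FPKM (log2 change 1.39, adjusted p = 0.000508). SPARC, a matrix glycoprotein, fell from 4.15 ± 0.768 to 0.840 ± 0.165 FPKM (log2 change -1.48, adjusted p = 4.09e-05). Neither ZEB1 nor ZEB2, which encode repressors that oppose GRHL2, passed the test (adjusted p = 0.632 and 0.0721). The log2 change of ZEB2 was 0.43, and it was called without both libraries numbered 5 (0.36, adjusted p = 0.0192), without dexamethasone replicate 5 (0.51, adjusted p = 0.0480) and without untreated replicate 4 (0.52, adjusted p = 0.0463).

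Of 20 genes that accompany TFCP2L1 in pluripotent cells, 11 passed the filter, 4 were called higher (36.4%) and 3 lower (27.3%), beside 12.4% and 14.3% of all tested genes, and the median log2 change was 0.24. SOX2 and GBX2 passed the filter through the untreated libraries alone, and POU5F1 mainly through the dexamethasone ones. The filter thus let these genes in by the group where they were high, and the shares are a description. The Krüppel-like factor gene KLF5 rose from 12.5 ± 2.16 to 25.6 ± 1.68 FPKM (log2 change 0.99, adjusted p = 0.000851), and the T-box factor gene TBX3 from 6.93 ± 0.599 to 14.4 ± 1.10 FPKM (log2 change 0.96, adjusted p = 0.000272). POU5F1, which encodes OCT4 and has near-identical pseudogenes that make its count uncertain, rose from 0.424 ± 0.246 to 1.67 ± 0.554 FPKM (log2 change 0.90, adjusted p = 0.00535). KLF4, named after its values were seen, was also called, at 3.68 ± 0.578 and 5.82 ± 0.956 FPKM (log2 change 0.54, adjusted p = 0.0256). It was not called on values as deposited (adjusted p = 0.0818) or without dexamethasone replicate 1, 3 or 4 or untreated replicate 1 (adjusted p of 0.0631 to 0.0823), which left 3 genes called higher. SOX2, the partner of OCT4 in stem cells, fell from 1.66 ± 0.212 to 0.220 ± 0.0407 FPKM (log2 change -1.12, adjusted p = 1.62e-05). The homeobox gene GBX2 fell from 1.69 ± 0.447 to 0.321 ± 0.0377 FPKM (log2 change -1.02, adjusted p = 0.000215), and TFAP2C, which encodes an AP-2 factor, from 11.7 ± 0.639 to 5.58 ± 0.702 FPKM (log2 change -0.96, adjusted p = 0.000351). KLF5, TBX3, POU5F1, SOX2, GBX2 and TFAP2C each had groups that did not overlap, and PRDM14, DPPA3, DPPA5, ZFP42 and TDGF1 were listed at 0 in all 8 libraries.

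Among 32 collecting-duct genes found in the files, of 33 listed, 11 passed the filter, 5 were called higher (45.5%) and 2 lower (18.2%), beside 12.4% and 14.3% of all tested genes, and the median log2 change was 0.32. SCNN1B, SCNN1G and HSD11B2 passed the filter through the dexamethasone libraries alone, and CA2 through the untreated ones alone. The filter thus let these genes in by the group where they were high, and the shares are a description. The epithelial sodium channel subunit genes led the rises: SCNN1A went from 2.69 ± 0.538 to 58.5 ± 6.02 FPKM and SCNN1B from 0.162 ± 0.0965 to 31.3 ± 5.40 FPKM (log2 changes 4.02 and 4.79). SCNN1G was listed at 0 in 3 untreated libraries, had 0.0140 FPKM in the fourth (replicate 5) and reached 13.0 ± 1.34 FPKM with dexamethasone. RHCG and HSD11B2, named after their values were seen, also rose. AQP3, an aquaglyceroporin of principal cells, fell from 5.84 ± 0.925 to 2.37 ± 0.747 FPKM (log2 change -1.04, adjusted p = 0.00184). CA2, a carbonic anhydrase of intercalated cells, fell from 1.31 ± 0.115 to 0.263 ± 0.157 FPKM (log2 change -0.88, adjusted p = 0.000263). FOXI1, the factor that specifies intercalated cells, and the water channel gene AQP2 were among 7 genes of the list at 0 in all 8 libraries, as were ATP6V1G3, SLC4A1, OXGR1, KIT and HEPACAM2.

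Of 13 genes listed as partners and targets of CP2 factors and found in the files, 9 passed the filter, with a median log2 change of -0.18. Of these, 1 was called higher (11.1%) and 2 lower (22.2%), near the 12.4% and 14.3% of all tested genes. The tie to CP2 factors of LMO4, 1 of the 2 called lower, was not checked. PIAS1, a SUMO ligase, rose from 4.46 ± 0.896 to 8.28 ± 1.73 FPKM (log2 change 0.76, adjusted p = 0.0108). TYMS, the thymidylate synthase gene and a known TFCP2 target in cycling cells, fell from 76.3 ± 15.0 to 34.7 ± 2.43 FPKM (log2 change -1.09, adjusted p = 0.000896). LMO4, a LIM-only cofactor gene, fell from 8.94 ± 4.24 to 3.43 ± 1.80 FPKM (log2 change -1.13, SE 0.353, adjusted p = 0.0414). Its groups overlapped, and it was not called without both libraries numbered 5 (-0.89, adjusted p = 0.121) or when any 1 library other than dexamethasone replicate 3 or untreated replicate 4 was left out. The count of genes called lower was 4 without both libraries numbered 5, when 45.1% of 12236 tested genes were called, 21.5% higher and 23.6% lower, and 1 without dexamethasone replicate 1, 4 or 5 or untreated replicate 1 or 3.

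**Figure D5:**
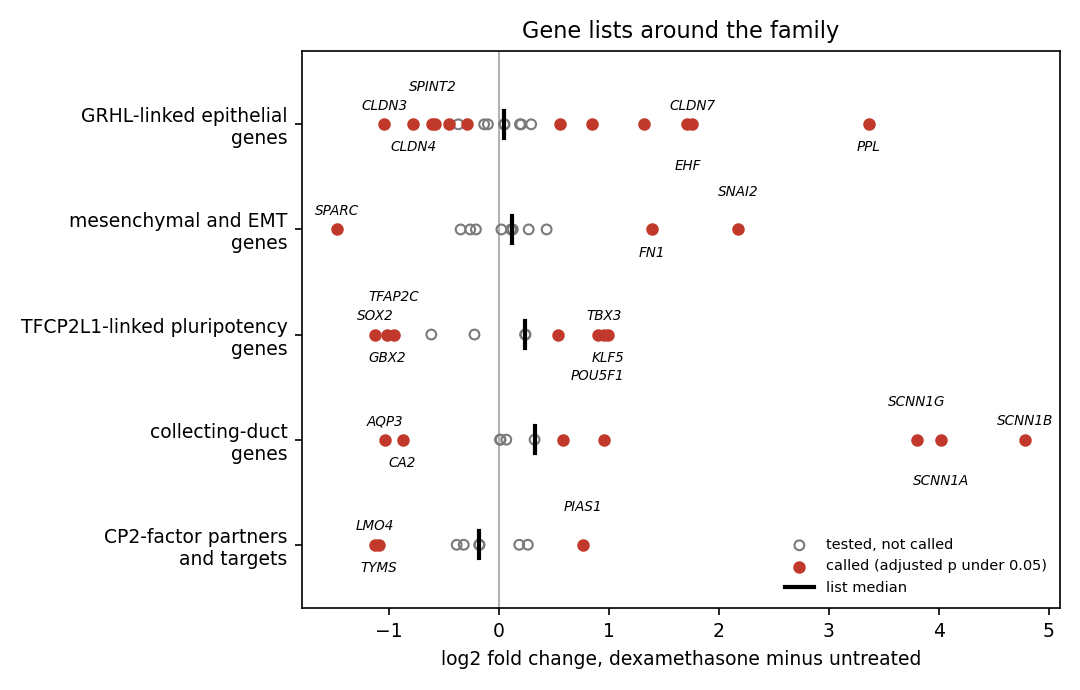
Log2 change (dexamethasone minus untreated, horizontal axis) of each tested gene in the 5 lists (rows), with called genes filled in red and a black line at the median of each list. Called genes lie on both sides of 0 in every list.

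Among the 5 genes whose log2(FPKM + 1) ran most like that of TFCP2L1 over the 8 libraries were CDKN1C, SCNN1G, ALPP and PLEKHA7, with Pearson r of 0.999, 0.999, 0.998 and 0.998. The comparison covered 11284 tested genes, 80 of which had an r of at least 0.99. With 4 libraries in each group, r is set almost wholly by the gap between groups. CDKN1C went from 0.351 ± 0.0678 to 11.2 ± 0.803 FPKM. PLEKHA7 had the highest untreated level of these 4 genes, at 8.997 ± 0.586 FPKM, against 24.0 ± 1.28 FPKM in dexamethasone libraries (log2 change 1.33). ALPP, at 0.0855 ± 0.0266 and 10.1 ± 0.612 FPKM, has near-identical paralogs, so its reads may be shared with them. These values are given as descriptions, since the likeness to TFCP2L1 chose the genes.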

How the data were processed

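RNA was measured in 8 libraries of A549 cells, 4 per group, grouped by the treatment label. The deposited values are read here as FPKM, since they are not whole numbers and their sums differ between libraries, although the deposited tables describe them as counts; the authors' step from counts to these values is not given in the sources used here. Per the submitters' processing notes, tools included cutadapt 3.4, STAR 2.7.9a, featureCounts (Subread 2.0.3) and DESeq2 1.32.0, with GRCh38. Whole reads could not be recovered, so no count test was run.

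Library scaling used trimmed means of M values, and genes were tested as log2(FPKM + 1) with limma 3.58.1 in R 4.3.3 (trend, robust), two-sided, over the 12161 genes that reached 0.5 FPKM in 4 or more libraries (3 where a library was left out). Adjustment was by Benjamini-Hochberg. The script was tested on data simulated from the untreated libraries, with 200 genes changed. It called 41.5% of genes changed 2-fold and 80.5% of those changed 4-fold, with 8 and 3 false calls. A gene that was not called may thus still have changed. GRHL1 failed the filter and its test has no filter. Coding sequences and annotation were GENCODE v44, which held 19065 of the 19158 genes; coding-sequence identity replaced the planned protein identity. The members and lists were chosen with earlier results of these data known. In each list up to 3 called genes with the largest rise and 3 with the largest fall are named, with FKBP5, TSC22D3 and PER1 and the 5 genes most correlated with TFCP2L1; 1 of these genes and 1 sequence are not reported here. Alternatives were the pseudocount, filter, scaling, a replicate block, GC content, limma without trend, and left-out libraries.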

Additional observations from a re-analysis of the deposited data

Results flagged for a closer look

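Of 60 groups of 4 values tested for a single library far from the other 3 (Dixon's 95% critical value), 8 were past the limit, where chance gives about 1 in 20. Untreated replicate 5 had the lowest GRHL1 level, 0.165 FPKM against 0.470 to 0.530 in the other 3 libraries, the lowest KLF5 level, 9.30 against 13.2 to 13.9, and the highest SPINT2 level, 171 against 121 to 129. It also had 0.0140 FPKM of SCNN1G, which was listed at 0 in the other 3. Dexamethasone replicate 5 had the highest AQP3 level, 3.48 FPKM against 1.91 to 2.07, and the lowest KLF5 level, 23.1 against 26.2 to 26.8. Dexamethasone replicate 3 had 6.13 FPKM of LMO4, against 2.35 to 2.71 in the other 3. Untreated replicate 1 had 0.307 FPKM of SCNN1B against 0.108 to 0.122.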

How the results depend on the processing

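Over the settings tried, TFCP2L1 kept its direction, with log2 changes of 3.55 to 3.65 when each library was left out and 4.05 with a pseudocount of 0.1. TFCP2 changed sign without both libraries numbered 5 (-0.061) and after the GC correction (-0.028), and ranged from -0.071 to 0.12 with single libraries left out. GRHL3 changed sign in the same settings (0.019 and 0.083), with a range of -0.082 to 0.019. UBP1 was -0.34 and called after the GC correction, with a range of -0.20 to 0.039. GRHL1, with no filter, was not called on values as deposited (-0.30), ranged from -0.39 to -0.25 with single libraries left out, and was -0.96 with a pseudocount of 0.1, -0.42 after the GC correction and -0.40 without both libraries numbered 5. Its alternatives and its exact test were chosen after seeing the data. The cause of these shifts was not tested.

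The genes called numbered 3251, against 5515 without both libraries numbered 5 and 2317 to 3883 with single libraries left out. Genes called lower among mesenchymal and EMT genes numbered 2 without both libraries numbered 5 and 2 after the GC correction, and those called higher 3 in both settings and with a replicate block. Among CP2 partners and targets they numbered 4 without both libraries numbered 5 and 1 to 3 with single libraries left out, and among grainyhead-linked genes 3 to 5. Same-numbered libraries correlated at 0.292, 0.0660, 0.315 and 0.713 for numbers 1, 3, 4 and 5. Dexamethasone replicates 3, 4 and 5 each correlated best with the same-numbered untreated library. However, untreated replicates 3 and 4 correlated best with dexamethasone replicate 1 (0.434 and 0.424). Whether the numbers pair the samples was thus unclear, and the main fit did not pair them. A replicate block gave 5747 called genes, with 4 lower among CP2 partners and targets, and left GRHL1 at -0.29 (adjusted p = 0.0352). Of 35 named list and marker genes, COL1A1 and CD68 not among them, 28 kept their call in every setting. The genes LMO4, SPINT2, KLF4, ARHGEF19 and CGN lost it in some, LMO4 also with no filter (adjusted p = 0.0694). ZEB1 and ZEB2 were not called at first; ZEB2 was called with a replicate block (adjusted p = 0.0127), and ZEB1 alone of the 35 changed sign (-0.197 after the GC correction). At the estimated 16.6 to 80.7 fragments of GRHL1 and 35.1 to 49.2 of GRHL3, counting error limits both genes.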
